A study of Mus musculus with 6 samples.

Results

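The cytochrome P450 (P450, gene prefix *Cyp*) genes of families 1 to 4 were examined in the livers of mice with diet-induced metabolic dysfunction-associated steatohepatitis (MASH), 3 labelled WT and 3 labelled as *Themis*-KO in the whole body. A gene belonged to this group when its symbol was *Cyp*, a family number from 1 to 4, a subfamily letter and a gene number, and when it held at least 10 counts summed over the 6 livers. Of the 25403 genes listed, 66 matched the name and 59, in 18 subfamilies, held enough counts. *Cyp2c69*, with 22 counts, lay just inside this limit and *Cyp2c65*, with 9, just outside it.

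P450 enzymes are haem proteins of the endoplasmic reticulum that insert 1 atom of oxygen into their substrates with electrons passed on by P450 oxidoreductase, encoded by *Por*. Members of families 1 to 3 oxidize drugs, toxins, steroids and polyunsaturated fatty acids, and members of family 4 hydroxylate fatty acids and eicosanoids at the end of the chain. Most of the hepatic forms are made by hepatocytes, many of them near the central vein, and their genes are switched by ligand-activated receptors such as CAR (*Nr1i3*), PXR (*Nr1i2*), the aryl hydrocarbon receptor (*Ahr*) and PPARα (*Ppara*). In mice several are also set by the pattern of growth hormone secretion, so that some are predominant in male and others in female liver.

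The diet, given to all 6 mice for 3 months from an age of 10 to 12 weeks, drew 40% of its energy from fat and 20% from fructose, and it held 2% cholesterol. The WT mice were C57BL6/J. The *Themis*-KO mice carry, per the labels, a whole-body knockout of *Themis*, which encodes a T cell signalling protein, and their background strain is not given in the labels. Chow-fed livers were not analysed here, so each comparison is between genotypes on the diet. Poly(A) RNA of whole liver was sequenced, in which fewer cells of a type and less RNA per cell cannot be told apart.

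The libraries held 20679642 to 25649767 counts on genes. *Themis* itself ran from 8.07 to 25.6 CPM (counts scaled to library size with TMM factors) in the WT livers and from 7.74 to 9.97 in the *Themis*-KO livers, and it did not separate the labels (log2 fold change −0.79, SE 0.38, adjusted p = 0.199 with edgeR). Every direction below therefore rests on the GEO labels, and the groups are named by them. Where values of 6 livers follow, those of WT replicates 1, 2 and 3 come before those of *Themis*-KO replicates 1, 2 and 3, in CPM unless another unit is named. WT replicates 1 and 2 stood apart from the other 4 livers in a mitochondrial gene and its nuclear copy, since *Gm28438* took 96.6% and 96.8% of the counts of the pair *Gm28438* and *mt-Nd3* in them and 2.20% to 3.26% in the others. Among the hepatocyte markers, *Alb*, *Ttr* and *Apoa1* with 8 more, the summed level was 62342 to 72488 CPM under the WT label and 54056 to 56237 CPM under the *Themis*-KO label, and no marker was at 0. Most of this sum was *Alb*, which was not called (log2 fold change −0.26, SE 0.12, adjusted p = 0.185 with edgeR). All 11 markers had a negative log2 fold change, as did 7102 of all 14496 genes tested. At an adjusted p under 0.05 from edgeR, 2 were called lower, where 4.14% of all tested genes were. The part of hepatocyte content in the P450 levels was not tested. Scaling by these markers, given below, changes the reference but cannot tell fewer cells from less RNA per cell.

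P450 transcripts were less abundant in the livers labelled *Themis*-KO. The 59 members together took 1.76, 2.12 and 1.52 in the livers labelled WT and 1.14, 1.10 and 1.35 in those labelled *Themis*-KO, as a percentage of all counts, and the groups did not overlap. The narrowest gap was between WT replicate 3 and *Themis*-KO replicate 3. Of the 59 members, 52 passed the filter on low counts and were tested with edgeR's quasi-likelihood test. At an adjusted p under 0.05, 19 were lower and 1 was higher in the livers labelled *Themis*-KO, and 32 were not called. Over all 14496 genes tested, 4.14% were called lower and 4.97% higher, against 36.5% and 1.92% of the tested members. Among genes with a mean of at least 10 CPM the shares called were 5.73% lower and 4.75% higher. The 19 lower members all lay among the 39 tested members above that level, of which they were 48.7%. Over the tested members the median log2 fold change was −0.44, beside 0.0095 for all tested genes. Every *Themis*-KO liver lay below every WT liver in 25 tested members, where 16.9% of all tested genes did so, and above in 6, where 17.7% did. With a fold change of at least 2 as a further condition, 9 members were lower and 1 was higher, where 1.12% and 1.86% of all tested genes were.

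The calls depended on which single liver was left out. The number of members called lower was 0 without *Themis*-KO replicate 1, 4 without *Themis*-KO replicate 2, 5 without WT replicate 1, 6 without WT replicate 2, 19 without WT replicate 3 and 26 without *Themis*-KO replicate 3. At an unadjusted p under 0.05, the fit without *Themis*-KO replicate 1 still gave 25 members lower. In each of these 6 fits all 19 members kept a negative log2 fold change with an unadjusted p under 0.05. Their sign was close to fixed in advance, since they were chosen on these livers and their groups did not overlap. *Cyp2c37*, *Cyp2c50*, *Cyp2c54* and *Cyp2u1* were still called in 5 of the 6 fits. With the mitochondrial split of the livers as a covariate, which compares WT replicate 3 with the *Themis*-KO livers, edgeR called 0 members lower and 20 passed an unadjusted p of 0.05. The 19 members, whose groups did not overlap, were negative there too, from −2.14 to −0.36 on the log2 scale. Scaling by the 11 hepatocyte markers instead of TMM moved the median of all genes to 0.34. In that setting 16 of the 19 were still called lower, and *Cyp2d10*, *Cyp2j5* and *Cyp4v3* were not. The median of the tested members was then −0.11, and 30 of them were negative, where 40 were with TMM. Over all genes tested, 5618 were called in either direction.

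**Figure D1:**
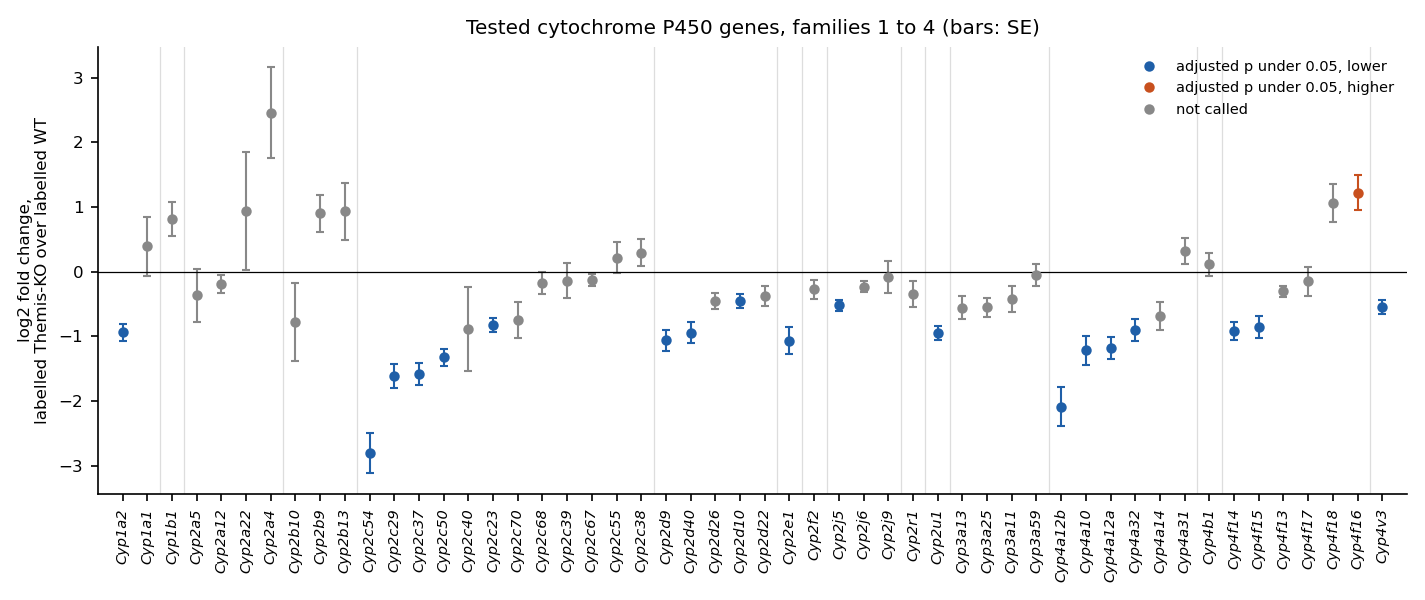
Log2 fold change (y axis) of each of the 52 tested P450 genes (x axis, grouped by subfamily), livers labelled *Themis*-KO over livers labelled WT, with SE bars. The 19 genes called lower run from *Cyp2c54* at −2.81 to *Cyp2d10* at −0.45, and *Cyp4f16* is the gene called higher.

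The Cyp2c subfamily, whose enzymes oxidize drugs and turn arachidonic acid into epoxides, held the largest single fall, that of *Cyp2c54*. Its 13 members form a cluster on chromosome 19 of GRCm38, apart from *Cyp2c23*, which lies farther along the chromosome. Of the 12 members tested, 5 fell and 7 were not called, and the median log2 fold change was −0.79. The summed level of the subfamily, in TPM (counts per union exon length, scaled to a common total), was 1822, 1603 and 1583 in the livers labelled WT and 923, 974 and 949 in those labelled *Themis*-KO. Every liver labelled *Themis*-KO lay below every liver labelled WT.

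*Cyp2c54* (chr19:40037940-40073827), an arachidonic acid epoxygenase, had a CPM of 68.9, 54.8 and 33.0 in the livers labelled WT and 5.69, 6.62 and 10.2 in those labelled *Themis*-KO. It fell by 2.81 log2 units (SE 0.31, adjusted p = 0.00936), the largest fall of the members, and its groups were far apart. *Cyp2c29* (chr19:39269405-39330713), an abundant CAR-responsive form, had 653, 624 and 506 against 162, 168 and 253, and it fell by 1.61 log2 units (SE 0.19, adjusted p = 0.0104). The lowest WT liver, replicate 3, lay well above the highest *Themis*-KO liver, also replicate 3. *Cyp2c37* (chr19:39992424-40012243) had 136, 125 and 92.6 against 38.4, 33.4 and 46.6, at a fitted log2 difference of −1.58 (SE 0.17, adjusted p = 0.00936). For *Cyp2c50* (chr19:40089688-40113950) the CPM was 412, 414 and 307 against 154, 138 and 160.4, at a fitted log2 difference of −1.32 (SE 0.14, adjusted p = 0.00926). The 3 *Themis*-KO livers held similar levels of *Cyp2c50*, all below the WT range. *Cyp2c23* (chr19:44005022-44029208), an epoxygenase also known from kidney, had 221, 204 and 177 against 104, 117 and 118, and it fell by 0.83 log2 units (SE 0.11, adjusted p = 0.0123).

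No other tested Cyp2c gene of the cluster was called. *Cyp2c67* had 105, 113 and 127 in the livers labelled WT and 103, 108 and 106 in those labelled *Themis*-KO (log2 fold change −0.12, SE 0.091, adjusted p = 0.388) and *Cyp2c68* had 48.5, 58.5 and 80.1 against 56.1, 55.3 and 54.1 (log2 fold change −0.18, SE 0.17, adjusted p = 0.498). In both genes the groups overlapped. *Cyp2c70*, which makes the muricholic acids of the mouse bile acid pool, had 281, 134 and 195 against 132, 143 and 90.1, and WT replicate 2 lay within the *Themis*-KO range (log2 fold change −0.74, SE 0.27, adjusted p = 0.116). *Cyp2c38* had 33.2, 60.9 and 52.4 against 52.6, 59.1 and 68.2, at a fitted log2 difference of 0.30 (SE 0.21, adjusted p = 0.369). *Cyp2c39*, *Cyp2c40* and *Cyp2c55* were scarce, with at most 3.35 CPM in any liver, and *Cyp2c69* was too low to be tested.

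Sequences bear on this subfamily in 2 ways. First, near-identical genes can share reads, and RSEM divides such reads by estimation. The coding sequence of *Cyp2c50* was 96.1% identical to that of *Cyp2c37* and 95.2% to that of *Cyp2c54*, yet few stretches as long as a read were identical. Of the read-length windows of *Cyp2c50*, 3.94% occurred in another *Cyp* gene, as did 3.64% of those of *Cyp2c54* and 0.303% of those of *Cyp2c37*. *Cyp2c40* and *Cyp2c69* shared 33.3% and 25.1% of their windows, and *Cyp2c67* 15.4%. As the sum of *Cyp2c50* and *Cyp2c54*, which does not depend on how reads are divided between them, the CPM was 481, 468 and 340.1 in the livers labelled WT and 159, 145 and 171 in those labelled *Themis*-KO. This sum did not overlap between the groups.

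Second, 1 promoter motif was frequent in the cluster, as was noticed after the calls were known. The 250 bases before the RefSeq start site were read for 47 of the 59 members. The letters CAAAGTCCA, which HNF4A binds, were found on either strand in 6 of these 47 windows (12.8%) and in 0.387% of the 32536 distinct windows of all genes. Of the 6 windows, 5 were of the Cyp2c genes *Cyp2c40*, *Cyp2c67*, *Cyp2c68*, *Cyp2c69* and *Cyp2c70*, and the other was *Cyp3a11*. None of the 13 lower members with a window held it, among them *Cyp2c29*, *Cyp2c37* and *Cyp2c50*, and the promoters of *Cyp2c54* and *Cyp2c23* were not analysed here. The motif did not divide the cluster by call, since it was also missing from the windows of the uncalled *Cyp2c38*, *Cyp2c39* and *Cyp2c55*, and *Cyp2c69*, which holds it, was not tested. The windows are shown for 3 genes that fell, at chr19:39286835-39287084, chr19:39992174-39992423 and chr19:40089429-40089678 on the forward strand, and for 3 that gave no call, at chr19:39649043-39649292, chr19:39741102-39741351 and chr19:40187287-40187536 on the reverse strand (RefSeq, GRCm38.p6). The RefSeq start of *Cyp2c29* lies 17680 bases inside the GENCODE gene given above. Capitals mark CAAAGTCCA, the nuclear receptor core site AGGTCA and, in *Cyp2c68*, the aryl hydrocarbon receptor core GCGTG, which reads CACGC on the strand shown.
Cyp2c29: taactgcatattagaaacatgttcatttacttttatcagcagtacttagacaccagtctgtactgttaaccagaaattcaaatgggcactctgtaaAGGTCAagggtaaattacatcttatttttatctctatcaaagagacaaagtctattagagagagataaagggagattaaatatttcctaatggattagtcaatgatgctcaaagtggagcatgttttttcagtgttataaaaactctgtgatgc
Cyp2c37: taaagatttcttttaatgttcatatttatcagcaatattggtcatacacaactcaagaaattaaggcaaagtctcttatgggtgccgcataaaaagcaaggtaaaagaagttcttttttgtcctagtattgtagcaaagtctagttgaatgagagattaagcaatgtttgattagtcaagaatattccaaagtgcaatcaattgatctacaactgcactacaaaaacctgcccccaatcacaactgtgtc
Cyp2c50: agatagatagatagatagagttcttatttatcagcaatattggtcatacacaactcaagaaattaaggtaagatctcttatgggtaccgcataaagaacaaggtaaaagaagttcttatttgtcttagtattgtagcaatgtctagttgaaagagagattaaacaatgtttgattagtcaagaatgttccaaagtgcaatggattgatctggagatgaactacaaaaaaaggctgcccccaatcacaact
Cyp2c67: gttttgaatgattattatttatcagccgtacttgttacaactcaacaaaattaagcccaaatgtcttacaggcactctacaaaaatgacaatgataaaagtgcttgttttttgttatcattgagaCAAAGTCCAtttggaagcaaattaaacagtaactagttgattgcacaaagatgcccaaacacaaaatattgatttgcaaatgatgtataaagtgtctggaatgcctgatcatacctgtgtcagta
Cyp2c68: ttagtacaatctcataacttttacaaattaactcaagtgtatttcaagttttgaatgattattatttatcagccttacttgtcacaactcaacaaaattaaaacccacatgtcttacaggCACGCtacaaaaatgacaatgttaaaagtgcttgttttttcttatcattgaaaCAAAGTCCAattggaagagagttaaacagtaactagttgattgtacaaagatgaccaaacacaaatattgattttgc
Cyp2c70: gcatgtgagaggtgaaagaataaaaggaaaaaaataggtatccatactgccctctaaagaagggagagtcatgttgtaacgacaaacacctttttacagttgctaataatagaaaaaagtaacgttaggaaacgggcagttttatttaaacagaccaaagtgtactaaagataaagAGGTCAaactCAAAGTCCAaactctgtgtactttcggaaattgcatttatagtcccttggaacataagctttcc
The letters AGGTCA was in 21.3% of the members' windows and 14.0% of all windows, and GCGTG in 17.0% and 28.3%. The STAT palindrome TTCNNNGAA was in 4.26% and 7.04%, and TTGCGCAA, a C/EBP site, was in no member's window (0.166% of all). The *Cyp2c37* and *Cyp2c50* windows were alike, with 215 of 250 bases identical when aligned, and those of *Cyp2c67* and *Cyp2c68* shared 188, so that genes of common descent are not separate observations. A match of letters is a description and not a measured binding site.

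*Cyp2e1* (chr7:140763739-140774987), the pericentral enzyme that oxidizes ethanol and acetaminophen, was the most abundant P450 transcript. Per length it reached a TPM of 6915 ± 1454 against 3728 ± 473 (SD, n = 3 each), above *Cyp2a5* at 1174 ± 534 against 1021 ± 478 (SD, n = 3 each) and *Cyp3a11* at 1141 ± 295 against 963 ± 70.9 (SD, n = 3 each). Its CPM was 6958, 8070.4 and 4818 in the livers labelled WT and 3153, 2641 and 3692 in those labelled *Themis*-KO. The groups did not overlap, and WT replicate 3 was the lowest WT liver by a wide margin. *Cyp2e1* fell by 1.07 log2 units (SE 0.21, adjusted p = 0.0304). Its share of all P450 TPM was 41.4, 40.5 and 35.4 against 33.2, 29.8 and 31.7, in percent, again with no overlap. Without *Cyp2e1*, the other members summed to a TPM of 10196, 12069 and 9751 against 7581, 7614 and 8991.

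All 5 tested genes of the Cyp2d subfamily, the mouse relatives of human CYP2D6, had a negative log2 fold change, and 3 of them fell. *Cyp2d9* (chr15:82433437-82456845), a male-predominant steroid 16α-hydroxylase, had a CPM of 1109, 1244 and 951 in the livers labelled WT and 569, 421 and 594 in those labelled *Themis*-KO, and it fell by 1.06 log2 units (SE 0.16, adjusted p = 0.0170). *Cyp2d40* had 80.0, 56.5 and 73.6 against 33.7, 32.0 and 43.4 (log2 fold change −0.95, SE 0.16, adjusted p = 0.0237). In *Cyp2d10* the CPM was 417, 465 and 421 against 309, 289 and 355, a smaller difference with no overlap (log2 fold change −0.45, SE 0.11, adjusted p = 0.0416). *Cyp2d26*, the most abundant form of the subfamily per length, had 782, 922 and 729 against 569, 548 and 662. Its groups did not overlap either, but it was not called (log2 fold change −0.45, SE 0.12, adjusted p = 0.0583). *Cyp2d22* had 215, 235 and 181 against 146, 142 and 198, with *Themis*-KO replicate 3 inside the WT range (log2 fold change −0.38, SE 0.16, adjusted p = 0.146). *Cyp2d11* and *Cyp2d12*, with at most 0.567 CPM, were not tested.

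In family 1, which metabolizes aromatic hydrocarbons and is induced through the aryl hydrocarbon receptor, 1 of the 3 genes was called. *Cyp1a2* (chr9:57676937-57683703), a pericentral enzyme that oxidizes caffeine and aromatic amines, had a CPM of 191, 211 and 160.5 in the livers labelled WT and 89.6, 94.5 and 111 in those labelled *Themis*-KO, and it fell by 0.93 log2 units (SE 0.13, adjusted p = 0.0131). *Cyp1a1*, the classical inducible form, was scarce, at 0.459, 0.528 and 0.631 against 0.680, 0.344 and 1.13 (log2 fold change 0.39, SE 0.45, adjusted p = 0.581). *Cyp1b1*, known from stromal cells outside the hepatocyte, had 1.83, 0.960 and 1.38 against 2.38, 2.62 and 2.36. Its groups did not overlap and it was not called (log2 fold change 0.81, SE 0.26, adjusted p = 0.0845).

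**Figure D2:**
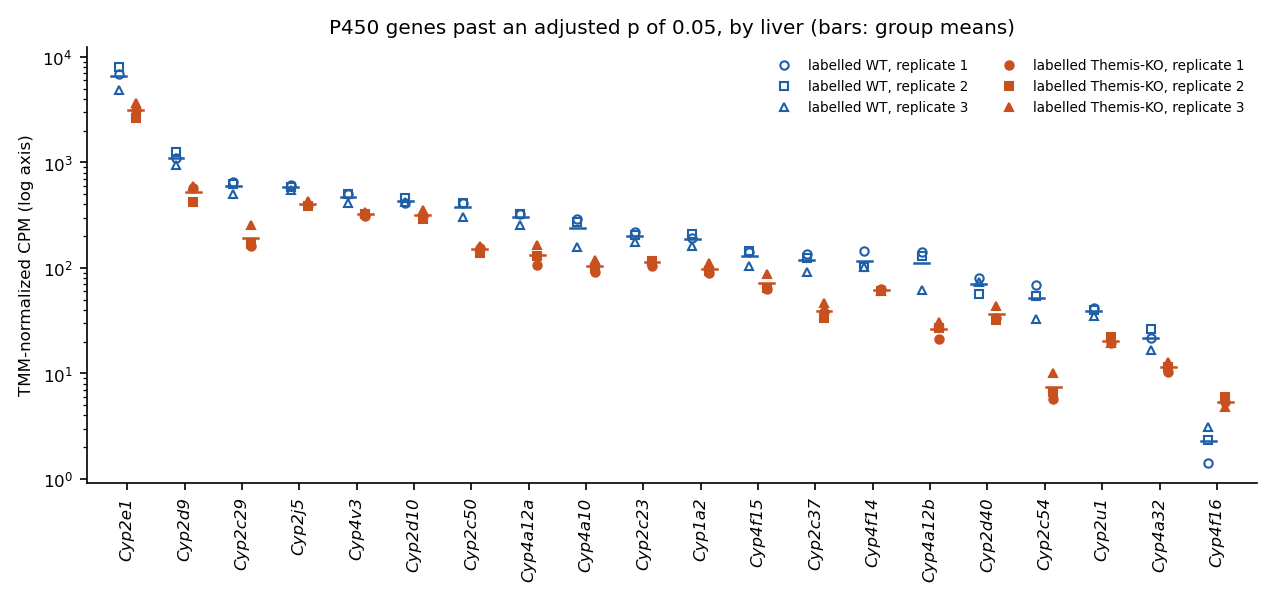
TMM-normalized CPM (log y axis) of the 20 P450 genes with an adjusted p under 0.05 (x axis) in each of the 6 livers, open symbols for livers labelled WT and filled symbols for livers labelled *Themis*-KO, with bars at the group means. In each of the 19 lower genes every filled symbol lies below every open one, and in *Cyp4f16* every filled symbol lies above.

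Of the smaller family 2 groups, *Cyp2u1* (chr3:131288441-131303227), a fatty acid hydroxylase, had a CPM of 42.2, 40.4 and 35.2 in the livers labelled WT and 19.5, 22.2 and 19.6 in those labelled *Themis*-KO, with a small spread in each group. It fell by 0.94 log2 units (SE 0.10, adjusted p = 0.00936). *Cyp2j5* (chr4:96628773-96664154), an arachidonic acid epoxygenase, had 608, 586 and 548 against 398, 389.5 and 427, and it fell by 0.52 log2 units (SE 0.088, adjusted p = 0.0235). The related *Cyp2j6* had 81.1, 83.4 and 75.8 against 63.5, 68.3 and 73.2, with no overlap and no call (log2 fold change −0.23, SE 0.086, adjusted p = 0.123), and *Cyp2j9* stood at −0.080 (SE 0.24, adjusted p = 0.844). *Cyp2f2*, the periportal form that oxidizes naphthalene, had 588, 835 and 599.5 against 559, 548 and 569.8. The *Themis*-KO livers lay just under the lowest WT liver, and the gene was not called (log2 fold change −0.27, SE 0.14, adjusted p = 0.238). Scaled by hepatocyte markers its difference was positive, at 0.049. *Cyp2r1*, a vitamin D 25-hydroxylase, had 9.77, 12.2 and 8.76 against 6.59, 7.48 and 10.1 (log2 fold change −0.35, SE 0.20, adjusted p = 0.269). *Cyp2g1*, an olfactory form, and *Cyp2s1* were not tested, with at most 0.720 and 0.301 CPM.

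The Cyp3a subfamily, which oxidizes drugs, steroids and bile acids under the control of PXR, gave no call among its 4 tested members, all of them negative, with a median log2 fold change of −0.49. *Cyp3a11* (chr5:145854426-145879964), its main hepatic form, had a CPM of 2274, 3436 and 2014 in the livers labelled WT and 1741, 1958 and 2068 in those labelled *Themis*-KO. WT replicate 2 was far above the other livers, and WT replicate 3 lay below *Themis*-KO replicate 3 (log2 fold change −0.42, SE 0.20, adjusted p = 0.189). *Cyp3a25* had 341, 403 and 323 against 226, 209 and 293, without overlap (log2 fold change −0.55, SE 0.15, adjusted p = 0.0562), and its near copy *Cyp3a59*, 97.5% identical in coding sequence, had 12.2, 17.2 and 13.8 against 12.6, 12.3 and 16.7 (log2 fold change −0.053, SE 0.17, adjusted p = 0.853). *Cyp3a13* had 189, 119 and 130.0 against 104, 108 and 87.1, also without overlap (log2 fold change −0.55, SE 0.18, adjusted p = 0.0867). *Cyp3a57* held 3 to 5 counts in each liver labelled WT and 9 to 16 in each labelled *Themis*-KO, and was too low to be tested.

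The Cyp4a enzymes hydroxylate fatty acids at the omega end, and several of their genes are targets of PPARα. Their summed TPM was 911, 917 and 634 in the livers labelled WT and 361, 425 and 469.6 in those labelled *Themis*-KO, without overlap, and 4 of the 6 genes fell. The sum in WT replicate 3 was the lowest of the WT livers and the nearest to the *Themis*-KO range.

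*Cyp4a12a* (chr4:115299046-115332815), a male-predominant arachidonic acid 20-hydroxylase, had a CPM of 324, 324 and 258 in the livers labelled WT and 107, 131 and 164 in those labelled *Themis*-KO. It fell by 1.17 log2 units (SE 0.17, adjusted p = 0.0152). *Cyp4a12b* (chr4:115411624-115439034), its neighbour on chromosome 4, had 142, 131 and 62.2 against 21.2, 27.2 and 30.5, at a fitted log2 difference of −2.09 (SE 0.30, adjusted p = 0.0152). The coding sequences of this pair were 98.5% identical and shared 31.7% of their read-length windows, so the division between them is uncertain. Their summed CPM was 466, 455 and 320.4 against 128, 159 and 195, and the sum did not overlap either. *Cyp4a12b* made up 30.7, 29.0 and 19.6 against 16.7, 17.3 and 15.8, as a percentage of the pair's TPM.

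Of the PPARα targets, *Cyp4a10* (chr4:115518264-115533649) had a CPM of 292, 274 and 159 in the livers labelled WT and 92.5, 101 and 119 in those labelled *Themis*-KO, and it fell by 1.21 log2 units (SE 0.22, adjusted p = 0.0266). *Cyp4a32*, 97.2% identical to it in coding sequence, had 21.8, 26.2 and 16.6 against 10.3, 11.6 and 12.8 (log2 fold change −0.90, SE 0.18, adjusted p = 0.0304). In both genes WT replicate 3 was the lowest WT liver. *Cyp4a14* had 155, 208 and 115 against 85.4, 95.3 and 116, and WT replicate 3 lay below *Themis*-KO replicate 3, so that the groups overlapped (log2 fold change −0.69, SE 0.21, adjusted p = 0.0781). *Cyp4a31* had 6.83, 5.37 and 6.12 against 9.14, 8.17 and 5.67 (log2 fold change 0.33, SE 0.20, adjusted p = 0.299). Of these 4 targets, 2 fell and 2 were not called, where 36.5% of all tested members fell.

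Cyp4f enzymes inactivate leukotrienes and other eicosanoids and hydroxylate long-chain fatty acids at the omega end. *Cyp4f14* had a CPM of 144, 103 and 101 in the livers labelled WT and 63.8, 59.9 and 60.5 in those labelled *Themis*-KO, and it fell by 0.92 log2 units (SE 0.14, adjusted p = 0.0191). *Cyp4f15* had 142, 144 and 104 against 63.4, 64.9 and 87.7, at a fitted log2 difference of −0.86 (SE 0.17, adjusted p = 0.0307). In these 2 genes no liver labelled *Themis*-KO reached the WT range. *Cyp4f13* had 42.7, 44.4 and 39.9 against 33.0, 33.2 and 36.8, with no overlap and no call (log2 fold change −0.30, SE 0.087, adjusted p = 0.0668), and *Cyp4f17* had 26.9, 18.3 and 18.7 against 24.9, 18.6 and 14.2 (log2 fold change −0.15, SE 0.23, adjusted p = 0.688). *Cyp4v3* (chr8:45304944-45333216), a fatty acid omega-hydroxylase outside this subfamily, had 503, 499 and 416 against 308, 324 and 339, and it fell by 0.55 log2 units (SE 0.10, adjusted p = 0.0293). *Cyp4b1*, better known from lung, had 9.04, 10.9 and 7.10 against 9.22, 9.03 and 11.1 (log2 fold change 0.12, SE 0.18, adjusted p = 0.688).

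The 1 member called higher was *Cyp4f16* (chr17:32536558-32551798), with a CPM of 1.42, 2.35 and 3.08 in the livers labelled WT and 5.35, 5.94 and 4.82 in those labelled *Themis*-KO. It rose by 1.22 log2 units (SE 0.27, adjusted p = 0.0380) from a low level, and it was called in the fits without WT replicate 3 or *Themis*-KO replicate 3 but in no other fit with a liver left out. Over these 6 fits its log2 fold change ran from 0.98 to 1.51. *Cyp4f18*, which oxidizes leukotriene B4 in leukocytes, had 0.963, 1.58 and 1.82 against 3.95, 2.49 and 2.74, with no overlap and no call (log2 fold change 1.07, SE 0.30, adjusted p = 0.0605). Markers of other cell types gave these values. The 12 macrophage markers summed to 428 to 746 CPM under the WT label and 733 to 922 CPM under the *Themis*-KO label. The 11 hepatic stellate cell markers summed to 452 to 516 CPM under the WT label and 688 to 739 CPM under the *Themis*-KO label, and the 9 cholangiocyte markers to 167 to 207 CPM under the WT label and 399 to 630.1 CPM under the *Themis*-KO label. Most of the cholangiocyte sum was *Spp1*, which other cells also make, and the other 8 markers summed to 27.2 to 31.6 CPM under the WT label and 32.1 to 59.5 CPM under the *Themis*-KO label. At an adjusted p under 0.05, 3 of the 12 macrophage, 6 of the 11 stellate cell and 1 of the 8 tested cholangiocyte markers, *Spp1*, were higher. Over all tested genes 4.97% were called higher and 4.14% lower. No marker of these lists was at 0 in every liver. For neutrophils, 5 markers summed to 5.47 to 9.08 CPM under the WT label and 6.99 to 21.2 CPM under the *Themis*-KO label. Endothelial markers (8) summed to 236 to 257 CPM under the WT label and 264 to 291 CPM under the *Themis*-KO label with 1 higher, T cell markers (7) to 3.98 to 5.52 CPM under the WT label and 3.10 to 7.31 CPM under the *Themis*-KO label with 1 of 5 tested lower, and B cell markers (4) to 2.34 to 5.57 CPM under the WT label and 1.59 to 4.91 CPM under the *Themis*-KO label with none called. The part of these cells in the levels of *Cyp4f16*, *Cyp4f18* and *Cyp1b1* was not tested.

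**Figure D3:**
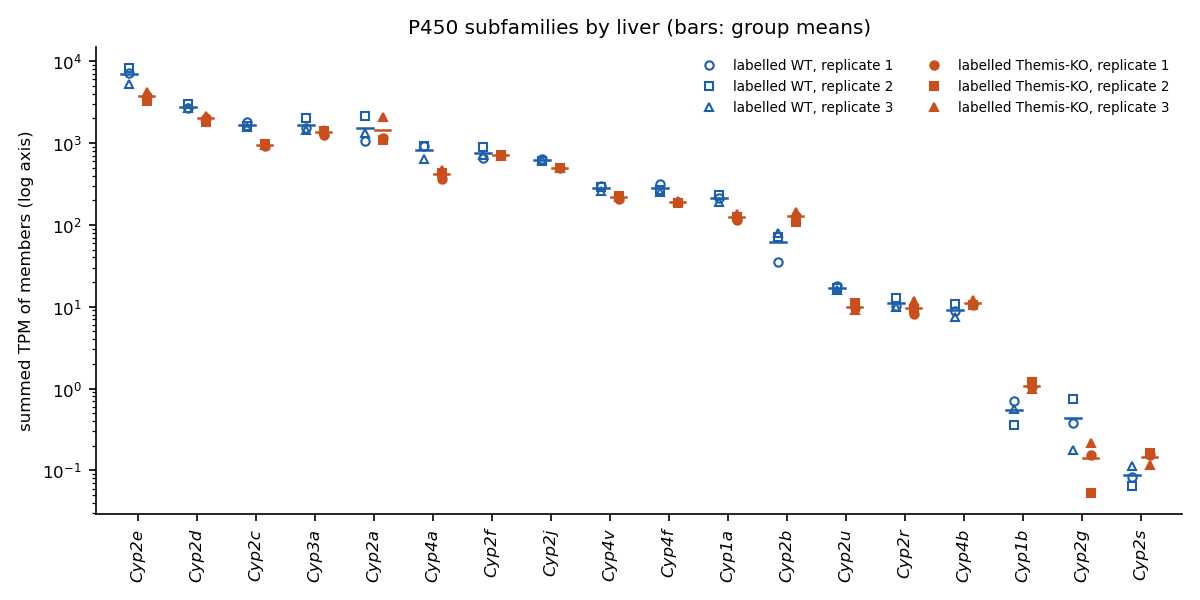
Summed TPM (log y axis) of the members of each of the 18 P450 subfamilies (x axis) in each liver, open symbols for livers labelled WT and filled symbols for livers labelled *Themis*-KO, with bars at the group means. The filled symbols lie below the open ones in Cyp2e, Cyp2d, Cyp2c, Cyp3a, Cyp4a, Cyp2j, Cyp4v, Cyp4f, Cyp1a and Cyp2u, above them in Cyp2b, Cyp1b and Cyp2s, and among them in Cyp2a, Cyp2f, Cyp2g, Cyp2r and Cyp4b.

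The Cyp2a and Cyp2b subfamilies, neighbours on chromosome 7, gave no call, and *Cyp2a4* had the largest positive value of the members. *Cyp2a4* (chr7:26307169-26315088), a female-predominant testosterone 15α-hydroxylase, had a CPM of 1.74, 14.7 and 21.7 in the livers labelled WT and 46.8, 55.1 and 109 in those labelled *Themis*-KO. WT replicate 1 was far below every other liver, *Themis*-KO replicate 3 far above, and the groups did not overlap. The gene was not called (log2 fold change 2.46, SE 0.70, adjusted p = 0.0645), and its log2 fold change ran from 1.95 to 3.10 with a liver left out. *Cyp2a5* (chr7:26835305-26843548), the coumarin 7-hydroxylase, was much more abundant, at 716, 1681 and 842 against 622, 561 and 1335. It was highest in WT replicate 2 and *Themis*-KO replicate 3, and the groups overlapped (log2 fold change −0.36, SE 0.41, adjusted p = 0.576). Without WT replicate 2 its log2 fold change was 0.11, of the opposite sign.

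*Cyp2a4* and *Cyp2a5* are a near-identical pair, 98.4% alike in coding sequence, although 4.95% and 7.96% of their read-length windows were shared with another *Cyp* gene. *Cyp2a4* made up 0.290, 1.03 and 2.98 in the livers labelled WT and 8.23, 10.5 and 8.91 in those labelled *Themis*-KO, as a percentage of the pair's TPM. This share did not overlap between the groups, while the summed CPM of the pair, 718, 1696 and 864 against 669, 616 and 1444, overlapped widely. Their promoters are shown because they were nearly the same while the levels were not. The windows, at chr7:26306942-26307191 and chr7:26835089-26835338 on the forward strand, had 245 of 250 bases identical when aligned, and neither held a searched motif, so that no letters are in capitals.
Cyp2a4: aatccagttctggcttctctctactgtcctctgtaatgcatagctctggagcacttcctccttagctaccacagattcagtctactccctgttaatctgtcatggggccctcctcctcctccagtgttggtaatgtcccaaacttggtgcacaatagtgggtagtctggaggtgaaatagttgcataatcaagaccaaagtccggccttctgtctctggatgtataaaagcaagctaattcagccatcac
Cyp2a5: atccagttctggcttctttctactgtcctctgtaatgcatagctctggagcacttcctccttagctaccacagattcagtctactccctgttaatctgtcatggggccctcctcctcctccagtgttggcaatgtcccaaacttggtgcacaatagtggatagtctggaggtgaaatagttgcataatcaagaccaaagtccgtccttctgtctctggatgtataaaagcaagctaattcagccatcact
*Cyp2a12* had 458, 549.6 and 436 against 392, 377 and 497 (log2 fold change −0.19, SE 0.14, adjusted p = 0.384). *Cyp2a22*, 97.0% identical to *Cyp2a12* in coding sequence, had 5.18, 6.62 and 9.04 against 18.5, 21.3 and 0.283. Its *Themis*-KO livers lay on both sides of the WT range, since *Themis*-KO replicate 3 held 6 counts where *Themis*-KO replicates 1 and 2 held 436 and 496 (log2 fold change 0.95, SE 0.91, adjusted p = 0.506).

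In Cyp2b, the phenobarbital-inducible subfamily, *Cyp2b9* had a CPM of 26.7, 58.7 and 58.6 in the livers labelled WT and 90.5, 72.6 and 106 in those labelled *Themis*-KO, with no overlap and no call (log2 fold change 0.90, SE 0.29, adjusted p = 0.0845). *Cyp2b13*, at 0.459, 1.92 and 1.74 against 2.34, 2.41 and 3.16, was also without overlap (log2 fold change 0.93, SE 0.43, adjusted p = 0.187). WT replicate 1 held the least of both genes. *Cyp2b10*, the classical target of CAR, was at 2.80, 0.672 and 1.70 against 0.340, 1.42 and 1.28 and overlapped (log2 fold change −0.77, SE 0.60, adjusted p = 0.406).

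The members with sex-predominant expression in mouse liver differed by list. All 4 male-predominant members, *Cyp2d9*, *Cyp2u1*, *Cyp4a12a* and *Cyp4a12b*, were called lower. Of the tested members with a mean of at least 10 CPM, which include these 4, 48.7% were called lower. Of the female-predominant list, 9 genes were in the table and 5 could be tested. With edgeR 0 were called, 3 of the 5 (*Cyp2a4*, *Cyp2b9* and *Cyp2b13*) had every liver labelled *Themis*-KO above every liver labelled WT, and *Cyp2b10* and *Cyp2c40* overlapped. The log2 fold changes of *Cyp2b10* and *Cyp2c40* were negative, at −0.77 (SE 0.60, adjusted p = 0.406) and −0.88 (SE 0.66, adjusted p = 0.387). At an unadjusted p under 0.05, *Cyp2a4* and *Cyp2b9* were higher, and DESeq2 called *Cyp2b9* (adjusted p = 0.0111) but not *Cyp2a4* (adjusted p = 0.0610). The difference between the lists was not tested. *Cyp2c69*, *Cyp3a41a*, *Cyp3a41b* and *Cyp3a44* had at most 13 counts in any liver. Of these untested genes, *Cyp2c69* was lower in every liver labelled *Themis*-KO, at 0.596, 0.0960 and 0.118 CPM against 0.0850, 0.0860 and 0. The labels do not give the sex of the mice. *Xist*, the X-inactivation transcript, had 0.0917, 0.0480 and 0.0395 in the livers labelled WT and 0.0425, 0.215 and 0.378 in those labelled *Themis*-KO, under 1 CPM in each liver, and the Y-linked *Ddx3y* had 45.4, 40.3 and 45.4 against 40.1, 42.7 and 36.3. *Xist* held 18 counts summed over all the livers, so its highest values, in *Themis*-KO replicates 2 and 3, rest on few counts. The Y-linked *Eif2s3y*, *Kdm5d* and *Uty* ran from 52.1 to 69.15, from 14.2 to 20.3 and from 9.63 to 11.6 CPM. Every liver of either label thus held Y-linked transcripts and next to no *Xist*. *Ghr*, the growth hormone receptor, had 454, 516 and 414 against 307, 266 and 354, and it fell by 0.58 log2 units (SE 0.13, adjusted p = 0.0404). *Stat5b*, its main signal transducer, stood at 0.19 (SE 0.13, adjusted p = 0.352), and *Bcl6*, a male-predominant repressor, at 0.33 (SE 0.36, adjusted p = 0.558).

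**Figure D4:**
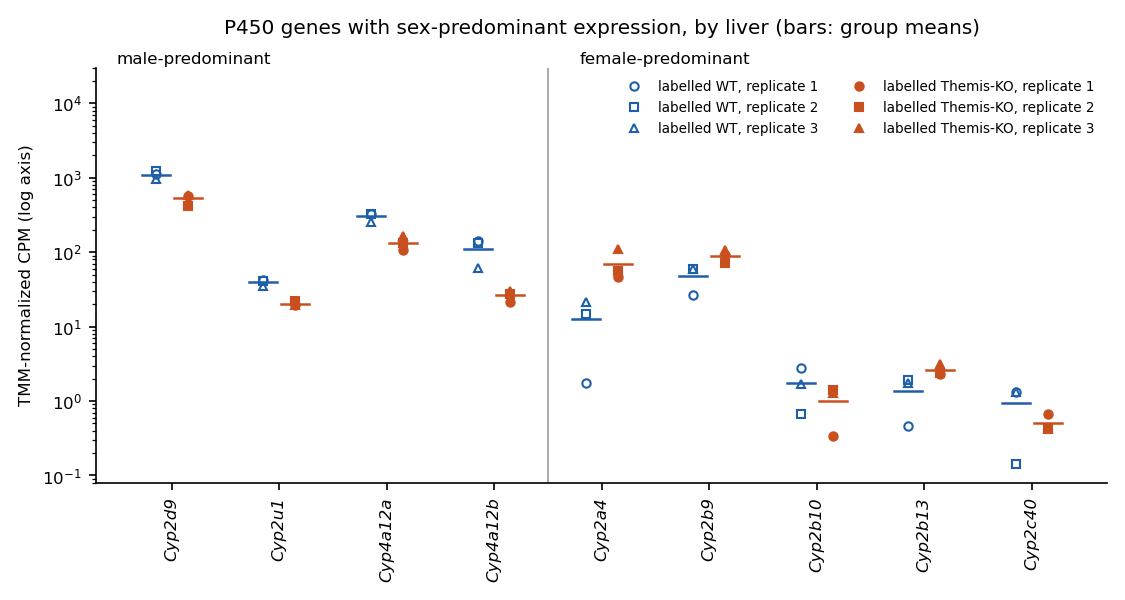
TMM-normalized CPM (log y axis) of the 4 male-predominant and the 5 tested female-predominant P450 genes (x axis) in each liver, open symbols for livers labelled WT and filled symbols for livers labelled *Themis*-KO, with bars at the group means. The filled symbols lie below the open ones in the 4 male-predominant genes and above them in *Cyp2a4*, *Cyp2b9* and *Cyp2b13*. In *Cyp2b10* and *Cyp2c40* they overlap, and the mean bar of the filled symbols is the lower one.

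Other lists by known regulation or position gave these counts, beside 36.5% of all tested members called lower. Of the tested members with a mean of at least 10 CPM, which include all 8 pericentral members, 48.7% were called lower. Of 8 pericentral members, 6 fell, namely *Cyp1a2*, *Cyp2c29*, *Cyp2c37*, *Cyp2c50*, *Cyp2c54* and *Cyp2e1*. *Cyp2a5* and *Cyp3a11* were not called. The periportal list held *Cyp2f2* alone, whose value is given above, and the difference between the zones was not tested. Of 8 CAR and PXR targets, 4 fell, all of them Cyp2c genes that are also on the pericentral list, and *Cyp2b10*, *Cyp2c55*, *Cyp3a11* and *Cyp3a13* were not called. Of the 3 aryl hydrocarbon receptor targets, *Cyp1a2* fell.

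The partners and regulators of P450 enzymes were counted next. Of 34 tested genes on these lists, 7 were lower and 0 higher at an adjusted p under 0.05 from edgeR, where 9.11% of all tested genes were called in either direction. With edgeR 0 genes were called without *Themis*-KO replicate 1, *Themis*-KO replicate 2, WT replicate 1 or WT replicate 2. Their counts at unadjusted p below 0.05 were 11 to 14. The number called was 3 without WT replicate 3, 22 without *Themis*-KO replicate 3 and 11 with DESeq2 on all 6 livers.

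Among the genes of electron transfer and haem, 2 of 14 fell. *Por*, which passes electrons to every microsomal P450, had a CPM of 663, 552 and 541 in the livers labelled WT and 380.3, 445 and 389 in those labelled *Themis*-KO, and it fell by 0.53 log2 units (SE 0.11, adjusted p = 0.0367). *Cpox*, a late enzyme of haem synthesis, had 239, 245 and 242 against 138, 144 and 184, and it fell by 0.64 log2 units (SE 0.12, adjusted p = 0.0281). No *Themis*-KO liver reached the WT range in either gene. *Alas1*, the rate-limiting enzyme of haem synthesis in liver, had 548, 992 and 464 against 312, 442 and 764 and overlapped (log2 fold change −0.40, SE 0.37, adjusted p = 0.492). *Hmox1*, which degrades haem, had 22.7, 21.6 and 33.5 against 166, 90.1 and 27.1, high in *Themis*-KO replicates 1 and 2 but not in replicate 3 (log2 fold change 1.87, SE 0.55, adjusted p = 0.0710). *Cyb5a*, cytochrome b5, stood at −0.26 (SE 0.13, adjusted p = 0.207). The other 9 genes lay between −0.29 and −0.091 and were not called. Of the epoxide hydrolases, *Ephx2*, the soluble form that opens the epoxides made from fatty acids, had 796, 868 and 729 against 495, 489 and 588, and it fell by 0.61 log2 units (SE 0.11, adjusted p = 0.0279). The microsomal *Ephx1* had 305, 488 and 385 against 476, 462 and 545 (log2 fold change 0.33, SE 0.17, adjusted p = 0.219).

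Of 18 tested regulators, 4 fell. *Ppara* had a CPM of 129, 118 and 122 in the livers labelled WT and 80.1, 78.9 and 99.2 in those labelled *Themis*-KO, and it fell by 0.52 log2 units (SE 0.11, adjusted p = 0.0345). *Rxra*, the shared dimer partner of CAR, PXR and PPARα, had 465, 445 and 433 against 312, 343 and 353, at a fitted log2 difference of −0.42 (SE 0.088, adjusted p = 0.0351). *Nr0b2*, the repressor SHP, had 18.7, 26.4 and 24.2 against 11.4, 15.1 and 15.1 (log2 fold change −0.73, SE 0.17, adjusted p = 0.0397), and the fourth was *Ghr*, given above. In these genes the groups did not overlap. *Nr1i3*, which encodes CAR, had 247, 352 and 288 against 139, 139 and 239.7, with no overlap and no call (log2 fold change −0.78, SE 0.23, adjusted p = 0.0720). *Nr1i2*, which encodes PXR, had 85.4, 89.8 and 71.2 against 64.0, 73.8 and 92.6 (log2 fold change −0.097, SE 0.15, adjusted p = 0.687). *Hnf4a*, the hepatocyte factor whose motif is shown above, had 499, 421 and 429 against 462, 542 and 388, and the livers of both labels were mixed (log2 fold change 0.045, SE 0.14, adjusted p = 0.842). *Ahr* had 17.9, 34.3 and 30.2 against 30.4, 28.8 and 48.4 (log2 fold change 0.38, SE 0.27, adjusted p = 0.368). *Cebpa*, a hepatocyte factor, stood at −0.28 (SE 0.095, adjusted p = 0.0931). *Nfe2l2*, the oxidant-responsive factor NRF2, stood at 0.41 (SE 0.11, adjusted p = 0.0588), with every *Themis*-KO liver above every WT liver. *Ahrr* and *Cux2* were too low to be tested.

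**Figure D5:**
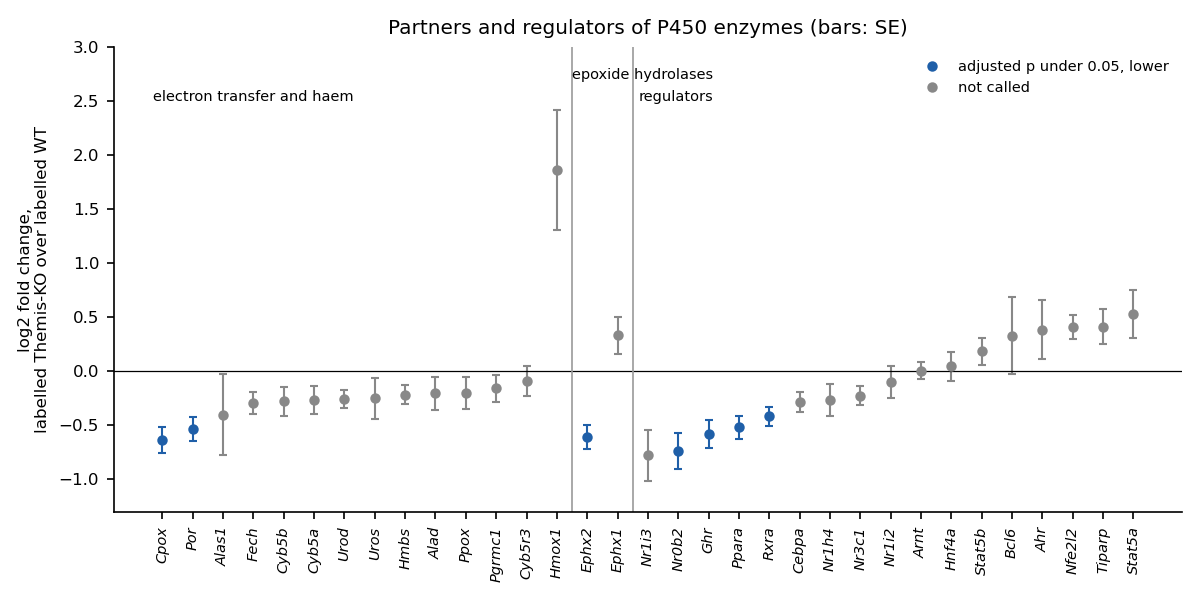
Log2 fold change (y axis) of the tested partner and regulator genes (x axis), 1 of the 34 left out, livers labelled *Themis*-KO over livers labelled WT, with SE bars. The 7 genes called lower are *Cpox*, *Por*, *Ephx2*, *Nr0b2*, *Ghr*, *Ppara* and *Rxra*, and *Hmox1* has the largest value and the widest error.

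Below the limit for members, *Cyp2c65*, *Cyp2j8*, *Cyp3a41a*, *Cyp3a41b*, *Cyp3a44*, *Cyp4f37* and *Cyp4x1* summed to at most 9 counts over the 6 livers. Of the 7 members too low to be tested, *Cyp4f39* had at most 0.434 CPM, and the others are given above with their subfamilies.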

How the data were processed

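Livers of 3 mice labelled WT and 3 labelled *Themis*-KO were profiled by RNA-seq. The deposited values are expected counts per gene, estimated by the authors with RSEM (1.3.3) after trimming with cutadapt (2.3) and alignment with STAR (2.7.8a), on GRCm38 per the labels' processing notes. They were whole numbers as deposited. The annotation release is not given in the sources used here, and the 25403 genes were named as in the table.

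Counts were filtered with filterByExpr, scaled by TMM and tested with edgeR (4.0.16, quasi-likelihood, all 6 livers, genotype alone), with Benjamini-Hochberg adjustment over all 14496 genes tested. The SE beside each log2 fold change is the size of that change divided by the square root of edgeR's F statistic. DESeq2 (1.42.0) was an alternative. TPM used union exon lengths of GENCODE mouse release 21. Replicates are separate livers, and the labels do not say whether littermates or run days were shared. Library totals were 20679642 to 25649767. The fits were also run on simulated counts, with the same dispersion for every gene and with changes larger than those of most members called lower. That simulation held no mitochondrial split of the livers, and it cannot tell how well smaller changes are called.

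The P450 genes and all lists were chosen with earlier results of these data known. The rule for named genes took every member called, the member of each subfamily with the highest level per length, a fixed set of well-known members, and, of the partners and regulators, those called and *Por*, *Nr1i2*, *Nr1i3*, *Ahr*, *Ppara* and *Hnf4a*. Other members are named to account for each one, and other partners and regulators were chosen after their values were seen. Promoter windows were the 250 bases before RefSeq start sites (GRCm38.p6), and the promoters of 12 members were not analysed here. *Cyp3a16*, 1 hepatocyte marker and 1 neutrophil marker of the lists were also not analysed here. The values of 1 regulator, which was not called and is in the counts, are not reported here. Alternatives were other scalings, filters and thresholds, DESeq2, a replicate block, the mitochondrial split as a covariate, and each liver left out in turn. Scaling by hepatocyte markers and leaving out WT replicates 1 and 2 were added after the data were seen.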

Additional observations from a re-analysis of the deposited data

How the results depend on the processing

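The log2 fold changes of the 19 lower members stayed negative in every alternative tried, and their unadjusted p was under 0.05 in all of them except scaling by hepatocyte markers, where 16 of 19 passed. These 19 were chosen on the same livers and their groups did not overlap, so the kept sign was close to fixed in advance. The counts of calls moved. Leaving out 1 liver at a time, the members called lower ranged from 0 to 26, those called higher from 0 to 4, the partners and regulators called from 0 to 22 and all genes called from 20 to 4267, against 19, 1, 7 and 1321. Without the filter on low counts 4 members were higher, 11 partners and 2179 genes were called, and with DESeq2 these counts were 3, 11 and 2279. Scaling by total counts alone gave 2 members higher. At an adjusted p under 0.1 there were 5 members higher, 13 partners and 2980 genes, and at 0.05 with a 2-fold limit 9 members lower, 0 partners (7 without the fold limit) and 431 genes. With the mitochondrial split as a covariate edgeR called 0 members lower (20 at an unadjusted p under 0.05), 0 higher (1), 0 partners (7) and 3 genes (1524). With WT replicates 1 and 2 left out, which leaves 1 WT liver assumed to vary like the others, it called 0 lower (22), 0 higher (5), 0 partners (7) and 9 genes (1254). Both settings leave fewer livers for the contrast. Scaling by hepatocyte markers gave 6 members higher and 5618 genes. Same-numbered livers did not deviate together (mean correlation −0.13 over 3 pairs, from −0.24 to 0.00028). With so few livers this cannot decide whether any were paired. With the replicate block 5 members were lower, 0 higher (6 at an unadjusted p under 0.05), 0 partners (12) and 62 genes called. Some uncalled genes changed sign with a liver left out. *Cyp1a1* ranged from −0.096 to 0.72, *Cyp2a5* from −0.89 to 0.11, *Cyp4b1* from −0.035 to 0.27, *Hnf4a* from −0.088 to 0.14 and *Nr1i2* from −0.27 to 0.014. Scaled by hepatocyte markers *Cyp2f2* was at 0.049 and *Nr1i2* at 0.23, and *Nr1i2* was at 0.042 with total counts, 0.11 with the mitochondrial split and 0.089 with WT replicates 1 and 2 left out. Apart from the counts that rest on fewer livers, the cause of these changes was not tested. Genes under about 1 CPM, such as *Cyp1a1*, were limited by depth.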

Other observations

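Several genes shared an order of the livers that the labels do not give, and it was noticed after the values were seen. How many of all genes share this order was not counted. *Cyp2a5*, *Alas1* and *Nr1i3* were each highest in WT replicate 2 among the WT livers and in *Themis*-KO replicate 3 among the *Themis*-KO livers, and *Cyp2c70* was lowest in the same 2 livers. *Cyp2a22* held 6 counts in *Themis*-KO replicate 3 and at least 113 in each other liver.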
